A study of Mus musculus with 6 samples.

Results

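The genes described here are 10 components of the Notch pathway: the receptors *Notch1*, *Notch2*, *Notch3* and *Notch4*, the ligands *Jag1*, *Jag2* and *Dll4*, and the target genes *Hes1*, *Hey1* and *Heyl*. They were taken by gene symbol from a table of 25403 genes, and each symbol matched 1 row. Poly(A) RNA was sequenced from the livers of 3 mice labelled wild-type C57BL6/J and 3 labelled Themis KO, a whole-body knockout, T cells included. All 6 mice, from an age of 10 to 12 weeks, received for 3 months a MASH diet (labelled AMYLIN liver NASH diet) in which fat gave 40% and fructose 20% of the energy, with 2% cholesterol. The comparison asks how livers labelled Themis KO differed from livers labelled wild-type on this diet. No chow-fed livers enter it, and the study describes its diet-fed WT and *Themis*-KO mice as male, while the labels do not say what a shared replicate number stands for.

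Notch signalling passes between touching cells. A ligand of the Jagged or Delta family on one cell binds a Notch receptor on its neighbour, the receptor is cut by ADAM proteases and then by γ-secretase, and its intracellular part joins the DNA-binding protein RBPJ in the nucleus to switch on repressors of the Hes and Hey families. In the liver the pathway is known for the formation of bile ducts, for which *Jag1* and *Notch2* are needed, for the arterial and sinusoidal endothelium, where *Notch1*, *Notch4* and *Dll4* are active, and for pericytes and smooth muscle cells, where *Notch3* and *Heyl* are typical.

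The libraries held from 20679642 to 25649767 estimated counts on genes, and levels are given as CPM, counts scaled to a common library size, after TMM scaling, a correction for differences in library composition. *Themis* itself, the inactivated gene, had 8.07, 25.6 and 12.0 CPM in WT replicates 1, 2 and 3 and 8.63, 7.74 and 9.97 CPM in *Themis*-KO replicates 1, 2 and 3. WT replicate 1 lay within the *Themis*-KO range, so the counts of this gene did not separate the labels (log2 fold change −0.79; edgeR quasi-likelihood adjusted p = 0.199). Both groups are therefore named by label only, and every direction below rests on the labels. WT replicates 1 and 2 stood apart from the other 4 livers in a pair of near-identical sequences, *Gm28438* and *mt-Nd3*. In these replicates *Gm28438* took 96.6% and 96.8% of the summed counts of the pair, against 2.20% to 3.26% elsewhere. This split is called the mitochondrial type as shorthand only. No label gives such a type, and the cause of the split was not tested. Results are also given with this split in the model, which leaves 1 liver labelled WT, replicate 3, in the type of all livers labelled *Themis*-KO. The label difference in that model thus rests on this 1 liver on the WT side. Few genes could be called in it, so a call lost there decides nothing. The hepatocyte markers were present in every liver, with *Alb* (albumin) between 33597 and 43023 CPM.

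Across the Notch genes, levels were on average higher in livers labelled *Themis*-KO, but no member passed the test. Of the 10 genes, 9 had enough counts to be tested, and *Jag2* did not. All 9 had a positive log2 fold change, against 51% of the 14496 genes tested. The median was 0.37 for the 9 and 0.0095 over all genes tested. The 9 values come from the same livers, so they are not independent of each other. With edgeR none of the 9 had an adjusted p under 0.05, against 9.11% of all genes tested. None was thus under it with a fold of at least 2, against 2.97%. At an unadjusted p under 0.05 there were 4 of 9 (*Notch2*, *Notch3*, *Jag1* and *Heyl*), where all genes gave 30.7%, or 16.8% in the upward direction. At an adjusted p under 0.1 there were 2 of 9, *Notch2* and *Jag1*, against 20.6% of all genes. These same 2 genes were the only tested members in which every liver labelled *Themis*-KO lay above every liver labelled WT, and 0 members showed the opposite. Labels did not overlap in 34.6% of all genes, upward in 17.7%. DESeq2 gave 1 member at an adjusted p under 0.05, *Jag1* (0.0346), with 15.1% of its genes called, 8.02% upward.

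**Figure D1:**
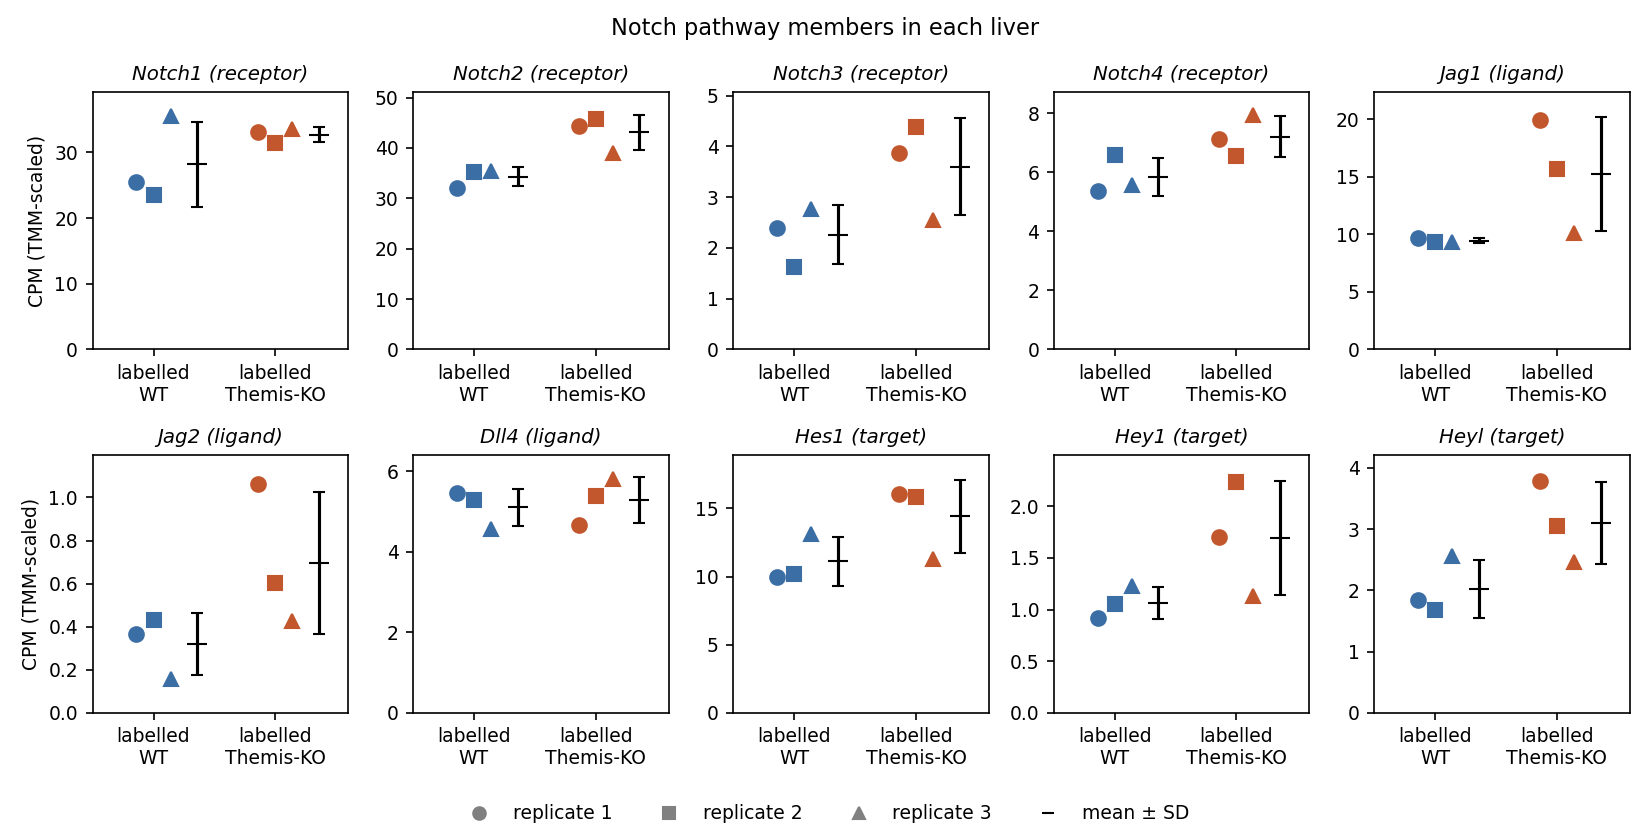
Level of each of the 10 Notch genes in each liver, as TMM-scaled CPM on an axis that starts at 0, by label on the horizontal axis, with the mean ± SD beside the 3 points of a label. *Notch2* and *Jag1* show no overlap between labels, and *Themis*-KO replicate 3 is the lowest of its label for 7 of the 10 genes.

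Among the receptors, *Notch2* differed most clearly from the spread between livers. *Notch2* encodes the receptor that biliary cells rely on and is found at chr3:98013527-98150361 (forward strand; all coordinates are of GRCm38, and all 10 members are protein coding). It had 32.1, 35.3 and 35.5 CPM in livers labelled WT and 44.4, 45.7 and 39.1 CPM in livers labelled *Themis*-KO. The lowest liver of the second label thus lay above the highest of the first, by about as much as the livers labelled WT spread among themselves. The log2 fold change was 0.33 (SE 0.093, 95% interval 0.11 to 0.55, edgeR adjusted p = 0.0629), and the exact two-sided permutation test gave p = 0.1, the smallest that 3 livers against 3 allow. With the mitochondrial type in the model the fold change was 0.28. With a liver left out it ran from 0.28 to 0.38. The edgeR adjusted p was then 0.0137 without *Themis*-KO replicate 3, and from 0.108 to 0.219 without any other liver.

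*Notch1*, the receptor of endothelial and many other cells, lies at chr2:26457903-26516663 (reverse strand). Its level was 25.6, 23.5 and 35.6 CPM in WT replicates 1, 2 and 3, and 33.1, 31.4 and 33.5 CPM in *Themis*-KO replicates 1, 2 and 3. The highest value of all 6 livers was that of WT replicate 3, while the 3 livers labelled *Themis*-KO were nearly level. The fold change on the log2 scale was 0.21 (95% interval −0.15 to 0.57, adjusted p = 0.380). It was 0.41 without WT replicate 3 and −0.12 with the mitochondrial type in the model, so even its sign rested on the livers labelled WT.

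*Notch3*, a receptor of pericytes and smooth muscle cells at chr17:32120820-32166852 (reverse strand), was the least abundant receptor. It had 2.39, 1.63 and 2.76 CPM in livers labelled WT and 3.87, 4.39 and 2.55 CPM in livers labelled *Themis*-KO, from 34 to 102 counts a liver. Replicates 1 and 2 of *Themis*-KO were above every liver labelled WT, and replicate 3 fell among them. Its log2 difference of 0.67 had a wide interval, from 0.03 to 1.31 (SE 0.28, adjusted p = 0.149).

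*Notch4*, an endothelial receptor at chr17:34564268-34588503 (forward strand), showed another order of livers. Its values were 5.37, 6.57 and 5.56 CPM with the WT label and 7.14, 6.54 and 7.93 CPM with the *Themis*-KO label. Here replicate 3 of *Themis*-KO was the highest liver, and WT replicate 2 and *Themis*-KO replicate 2 were nearly equal. The log2 fold change was 0.30 (95% interval −0.04 to 0.65, adjusted p = 0.204).

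Of the ligands, *Jag1* had the largest log2 fold change of the tested members, just above that of *Notch3*, and it was uneven across livers. *Jag1* encodes Jagged1, the ligand known for bile duct formation, at chr2:137081456-137116644 (reverse strand). The 3 livers labelled WT had 9.68, 9.36 and 9.31 CPM. The livers labelled *Themis*-KO had 20.0, 15.7 and 10.2 CPM in replicates 1, 2 and 3. The first label was thus tightly grouped, whereas the second ran from just above it to more than its double in *Themis*-KO replicate 1. The log2 fold change was 0.69 (SE 0.22, 95% interval 0.17 to 1.21, adjusted p = 0.0867, exact two-sided permutation p = 0.1). It was 0.45 without *Themis*-KO replicate 1 and 0.90 without *Themis*-KO replicate 3, and 0.71 with the mitochondrial type in the model.

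*Jag2*, the second Jagged ligand, at chr12:112907819-112929776 (reverse strand), was near the lower limit of this depth. It had 8, 9 and 4 counts in WT replicates 1, 2 and 3 and 25, 14 and 9 counts in *Themis*-KO replicates 1, 2 and 3. Its lowest and highest counts carry a counting error alone of 50% and 20%, and WT replicate 2 and *Themis*-KO replicate 3 had the same number of counts. In CPM these were 0.367, 0.432 and 0.158 against 1.06, 0.602 and 0.425. The filter on low counts left the gene out. A fit of all genes without that filter, which called 8.58% of them, put *Jag2* at 1.13 on the log2 scale (SE 0.51, adjusted p = 0.212).

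*Dll4*, the Delta ligand of endothelial cells, at chr2:119325784-119335962 (forward strand), had almost the same level under both labels. The values were 5.46, 5.28 and 4.58 CPM with the WT label and 4.67, 5.38 and 5.81 CPM with the *Themis*-KO label. The 2 ranges overlapped over most of their length. The log2 fold change was 0.05, and its 95% interval of −0.31 to 0.41 bounds the difference that the spread between livers leaves possible (adjusted p = 0.843).

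The promoters of *Jag1* and *Notch2* are shown because these 2 genes came nearest to the threshold, and that of *Lfng*, a pathway gene described below, because it holds every motif searched. RefSeq promoter windows on GRCm38.p6, from 250 bases before to 50 bases after the start, were matched for 7 of the 10 members, all but *Hes1*, *Hey1* and *Heyl*. The stretches are upstream of the start in both RefSeq and GENCODE vM21. They are chr2:137116645-137116770 on the reverse strand for *Jag1*, chr3:98013288-98013526 on the forward strand for *Notch2* and chr5:140607091-140607319 on the forward strand for *Lfng*. Capitals mark CACGCG, a site that Hes and Hey repressors are known to bind, on either strand. In *Lfng* they also mark GTGGGAA, the core bound by RBPJ, and the E-box CACGTG, with which it shares 3 bases.
Jag1: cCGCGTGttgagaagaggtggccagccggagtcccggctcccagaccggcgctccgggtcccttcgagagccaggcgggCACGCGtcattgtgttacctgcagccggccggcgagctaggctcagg
Notch2: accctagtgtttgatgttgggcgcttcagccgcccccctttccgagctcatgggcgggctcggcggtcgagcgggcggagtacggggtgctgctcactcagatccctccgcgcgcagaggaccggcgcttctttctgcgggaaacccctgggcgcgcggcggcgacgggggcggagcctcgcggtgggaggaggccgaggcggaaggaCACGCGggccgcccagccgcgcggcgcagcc
Lfng: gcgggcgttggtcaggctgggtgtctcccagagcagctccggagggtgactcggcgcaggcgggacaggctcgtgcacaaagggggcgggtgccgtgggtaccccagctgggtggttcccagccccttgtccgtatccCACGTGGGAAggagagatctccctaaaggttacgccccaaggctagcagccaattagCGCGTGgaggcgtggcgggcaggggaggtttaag
In the full windows of 300 bases, CACGCG was present in 4 of the 7 members, *Jag1*, *Jag2*, *Dll4* and *Notch2*. It was also in 11 of the 49 other pathway genes searched, and in 9.27% of the 32851 windows of all genes. GTGGGAA was in none of the 7, in 7 of the 49, and in 6.38% of all windows. CACGTG was likewise in none of the 7, in 7 of the 49, and in 7.15% of all windows. Windows of like base content were not compared. A match describes the letters only, and *Dll4*, which holds CACGCG too, had a log2 difference of 0.05.

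In all 3 target genes *Themis*-KO replicates 1 and 2 were the highest livers, with *Themis*-KO replicate 3 within the range of the WT label. *Hes1*, the repressor most often read as a measure of Notch signalling, lies at chr16:30064384-30067796 (forward strand). Its level was 9.95, 10.2 and 13.1 CPM in livers labelled WT and 16.1, 15.9 and 11.3 CPM in livers labelled *Themis*-KO. WT replicate 3 exceeded *Themis*-KO replicate 3. The log2 fold change of *Hes1* was 0.37 (SE 0.18, 95% interval −0.03 to 0.78, adjusted p = 0.191), 0.51 without WT replicate 3, and 0.13 with the mitochondrial type in the model.

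*Hey1*, a repressor of endothelial and other Notch-responsive cells, at chr3:8663359-8667256 (reverse strand), had 20, 22 and 31 counts in livers labelled WT and 40, 52 and 24 counts in livers labelled *Themis*-KO. In CPM these were 0.917, 1.06 and 1.22 against 1.70, 2.24 and 1.13. The groups overlapped only through *Themis*-KO replicate 3, which was below WT replicate 3. The log2 fold change was 0.66, with an interval from −0.04 to 1.37 (adjusted p = 0.182).

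*Heyl*, the Hey factor typical of pericytes and smooth muscle, at chr4:123233556-123249875 (forward strand), had 1.83, 1.68 and 2.57 CPM in livers labelled WT. Livers labelled *Themis*-KO had 3.78, 3.05 and 2.46 CPM. Again only *Themis*-KO replicate 3 fell below the highest liver labelled WT. The difference was 0.61 on the log2 scale (95% interval 0.03 to 1.18, adjusted p = 0.147), and 0.27 with the mitochondrial type in the model.

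**Figure D2:**
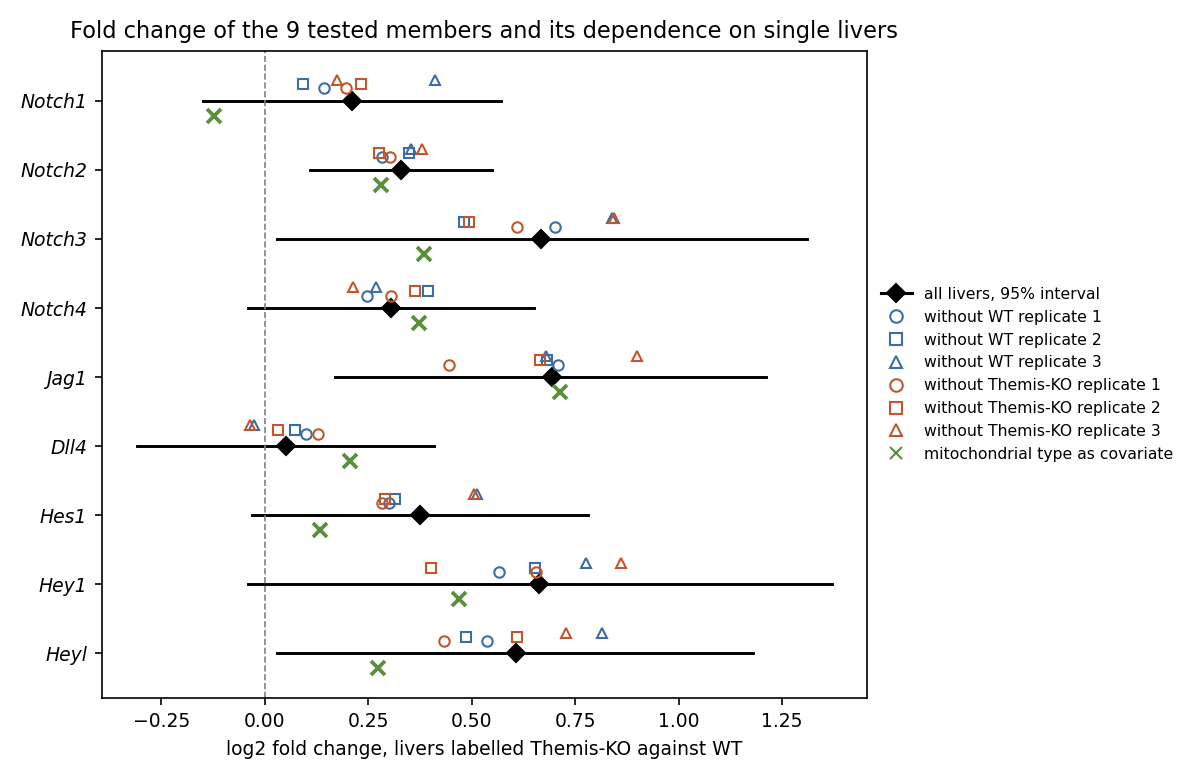
Log2 fold change of the 9 tested members (horizontal axis), with its 95% interval from all 6 livers as a black diamond and line, the value with each liver left out as open symbols and the value with the mitochondrial type in the model as a cross. Values without *Themis*-KO replicate 3 are the highest for *Jag1*, *Notch2* and *Hey1*, and the cross for *Notch1* lies below 0.

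*Themis*-KO replicate 3 set the outcome of the count. Without it, 5 of the 10 members then tested passed the same edgeR test, *Jag1* (adjusted p = 0.00391), *Notch2* (0.0137), *Hes1* (0.0352), *Notch3* (0.0370) and *Hey1* (0.0485), all with higher levels in livers labelled *Themis*-KO. The same fit called 28.8% of all genes tested, and 15.0% of all genes tested were called upward, so the background was larger as well. Leaving out any other liver gave 0 members. With the mitochondrial type in the model 0 members were called, 0 of 9 had an unadjusted p under 0.05, and 8 of 9 remained positive. With libraries scaled by total counts alone, *Notch2* was called (log2 fold change 0.47, adjusted p = 0.0354) with 12.7% of all genes, 10.0% upward, a scaling that moved the median of all genes from 0.0095 to 0.15.

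Levels of different genes were compared as CPM per kilobase of exons in GENCODE vM21. In livers labelled WT, *Hes1* was the most abundant member at 5.45 ± 0.868 CPM per kb (SD, n = 3), followed by *Notch2* at 3.18 ± 0.175, *Notch1* at 1.98 ± 0.456, *Jag1* at 1.62 ± 0.0343 and *Dll4* at 1.33 ± 0.121. *Notch4* was next at 0.724 ± 0.0803, and *Heyl*, *Hey1* and *Notch3* lay between 0.279 and 0.396. *Jag2* was lowest at 0.0458 ± 0.0206. The ranges of neighbours overlapped for *Notch1* and *Jag1* and among *Heyl*, *Hey1* and *Notch3*, and these genes cannot be ordered, whereas *Hes1*, *Notch2* and *Notch1* did not overlap with each other.

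**Figure D3:**
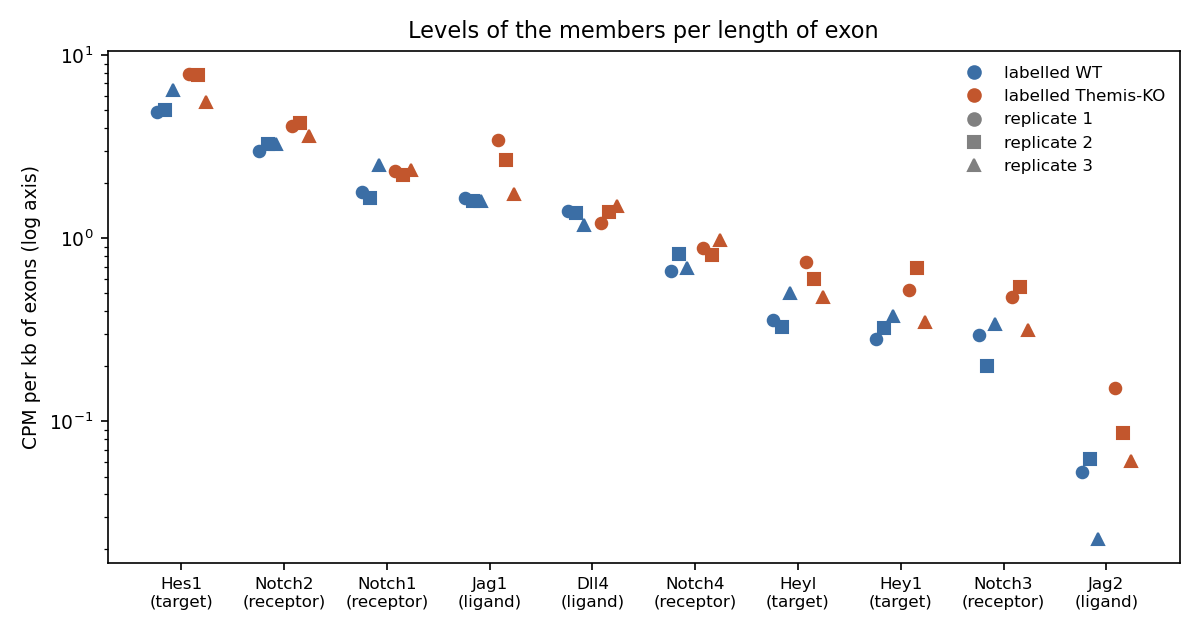
Level of each member per kilobase of exons in each liver, on a log axis, ordered by the mean of livers labelled WT. *Hes1* and *Notch2* are highest and *Jag2* is lowest, at 0.0227 to 0.153 CPM per kb over the 6 livers.

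The makeup of each class, which does not depend on how libraries were scaled, was alike for the receptors and uneven for the ligands. *Notch2* took 51.8% ± 3.44 of the summed receptor level per kb in livers labelled WT and 52.3% ± 2.32 in livers labelled *Themis*-KO (SD, n = 3 each). *Jag1* took 53.1%, 52.9% and 56.9% of the ligand sum with the WT label and 71.5%, 64.4% and 52.6% with the *Themis*-KO label, the rest being nearly all *Dll4*. *Themis*-KO replicates 1 and 2 thus had a *Jag1* share above every liver labelled WT, and replicate 3 a share just below them (exact two-sided permutation test, p = 0.4). Among the targets, *Hes1* took 88.4%, 88.5% and 88.0% with the WT label and 86.2%, 85.9% and 87.0% with the *Themis*-KO label. That share did not overlap between labels (exact two-sided permutation test, p = 0.1), with the rest split between *Hey1* and *Heyl*.

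Log2 ratios were computed within each liver for 5 pairs of members, and all 5 overlapped between labels. *Jag1* to *Notch2*, ligand to receptor, was 0.31 higher on the log2 scale in livers labelled *Themis*-KO, with livers at −1.73, −1.91 and −1.93 against −1.15, −1.55 and −1.95 (exact two-sided permutation test, p = 0.4, adjusted p = 0.5 over the 5 pairs). *Hes1* to *Notch2*, target to receptor, differed by 0.04 between labels (exact permutation p = 1). *Notch3* to *Notch2* differed by 0.34, *Hey1* to *Hes1* by 0.25 and *Jag1* to *Jag2* by −0.51, with adjusted p = 0.5 for each by the same exact permutation test. With 3 livers a label this test cannot give a p below 0.1, so no shift of any size could have passed 0.05.

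Around the members, 62 other genes of the pathway were listed by role, of which 61 were in the table and 56 were tested. One was called higher in livers labelled *Themis*-KO and 0 lower, beside 4.97% and 4.14% of all genes, and the median log2 fold change was 0.06. The called gene was *Cdkn1a*, which encodes the cell cycle inhibitor P21 and is induced by Notch in some cells and by p53 in many. It had 7.61, 8.54 and 18.8 CPM in livers labelled WT and 35.5, 48.7 and 34.1 CPM in livers labelled *Themis*-KO (log2 fold change 1.75, SE 0.33, edgeR adjusted p = 0.0297). It kept an adjusted p under 0.05 without WT replicate 3 and without *Themis*-KO replicate 3, and lost it without any of the other 4 livers. With DESeq2, 5 of the 56 genes it tested were called, 4 higher and 1 lower, which is below its share of 15.1% over all genes. Every liver of one label was beyond every liver of the other in 18 of the 56 genes, 13 upward and 5 downward, where all genes gave 17.7% and 16.9%.

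**Figure D4:**
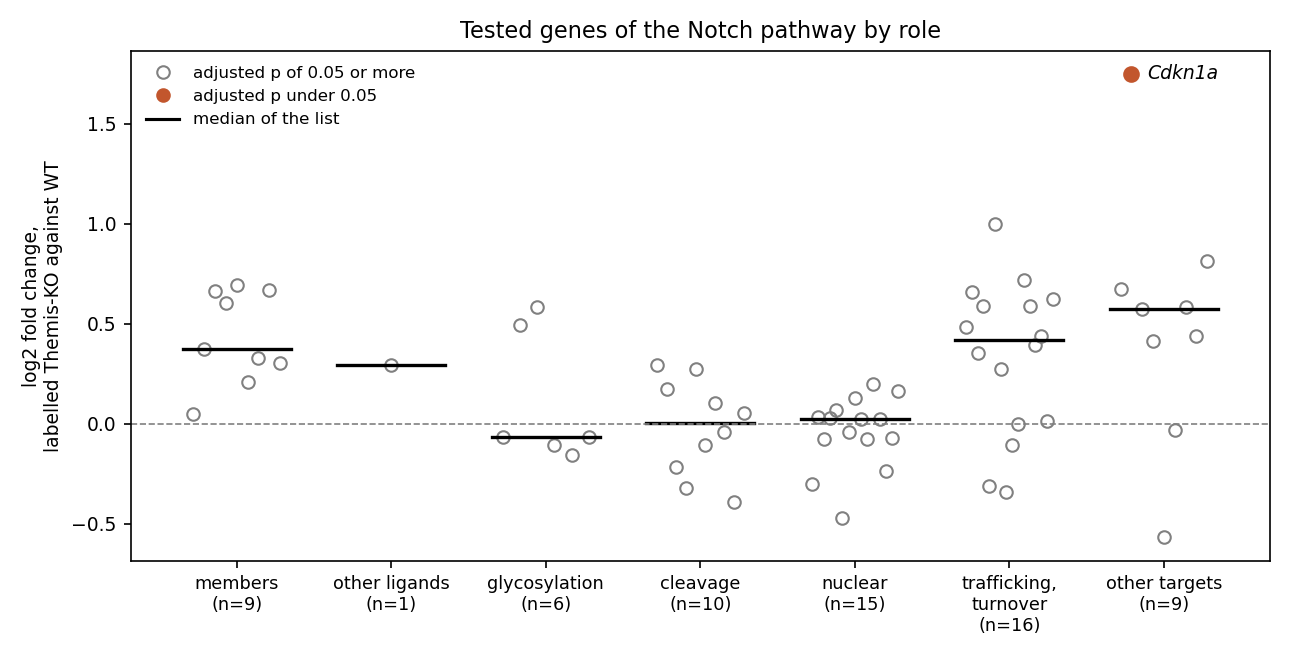
Log2 fold change of each tested gene (circles) in 7 groups of the Notch pathway, with the median of each group as a line and genes of adjusted p under 0.05 filled. *Cdkn1a*, at 1.75, is the one filled circle, and the medians of cleavage and nuclear genes lie close to 0.

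The lists of receptor cleavage and of nuclear genes had medians close to 0, over genes that differed in both directions. The 10 genes of receptor cleavage had a median log2 fold change of 0.006, with 0 called in either direction by edgeR, and 1 upward and 1 downward at an unadjusted p under 0.05. Of these, *Furin*, the convertase that processes the receptor precursor, was the most abundant, at 256 ± 14.7 and 238 ± 16.4 CPM (SD, n = 3 each, adjusted p = 0.464). *Psen2*, a catalytic subunit of γ-secretase, had 77.0, 87.3 and 69.3 CPM with the WT label and 50.9, 54.8 and 72.6 CPM with the *Themis*-KO label (log2 fold change −0.39, adjusted p = 0.128). In that gene too, *Themis*-KO replicate 3 lay within the WT range. The 15 nuclear genes, RBPJ and its partners, had a median of 0.024 and 0 calls, with 1 gene, downward, at an unadjusted p under 0.05, and with *Ncor1*, a corepressor, at −0.04 (adjusted p = 0.798) and *Kat2b*, a histone acetyltransferase, at −0.08 (adjusted p = 0.560). Named after their values were seen, *Adam10*, the protease of the first cut, had 0.29 (adjusted p = 0.106) and *Cir1*, a corepressor, −0.30 (adjusted p = 0.0644), both without overlap between labels.

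The 6 genes of receptor glycosylation had a median of −0.067 and 0 calls, with 2 upward at an unadjusted p under 0.05. *Rfng*, a Fringe enzyme that extends sugars on Notch, had a log2 fold change of −0.07 (adjusted p = 0.654), and *Pofut1*, which adds the first fucose, one of −0.10 (adjusted p = 0.516). The Fringe genes *Lfng* and *Mfng*, chosen here after their values were seen, had 0.49 (adjusted p = 0.133) and 0.58 (adjusted p = 0.146). For *Lfng* the levels were 4.22, 4.89 and 5.37 CPM with the WT label and 8.16, 6.97 and 5.29 CPM with the *Themis*-KO label, an order of livers in which *Themis*-KO replicate 3 again fell below WT replicate 3. Its promoter is the one printed above. *Dll1*, the one other ligand with enough counts, had 5.55, 5.28 and 4.70 CPM against 6.50, 5.98 and 6.52 CPM, which did not overlap (log2 fold change 0.29, adjusted p = 0.192).

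The 16 genes of trafficking and turnover had a median of 0.42 with 0 calls by edgeR. Of them, 9 had an unadjusted p under 0.05, 7 upward and 2 downward, where all genes gave 30.7%, or 16.8% upward. DESeq2 called 2 of the 16 higher and 1 lower, beside 15.1% of its genes in either direction. *Dtx3l*, a ubiquitin ligase of the Deltex family, had 96.5, 85.7 and 92.7 CPM with the WT label and 65.3, 73.8 and 82.5 CPM with the *Themis*-KO label, without overlap (log2 fold change −0.31, adjusted p = 0.0941). *Mib1*, the ubiquitin ligase that lets ligands signal, had a log2 fold change of −0.10 (adjusted p = 0.569). *Dtx4*, a Deltex gene chosen here after its values were seen, had 6.15, 5.18 and 7.06 CPM against 14.2, 15.1 and 7.37 CPM (log2 fold change 1.00, adjusted p = 0.0585). Of the other Deltex genes, also named after their values were seen, *Dtx1* had a log2 fold change of 0.66 (adjusted p = 0.419), *Dtx2* of 0.36 (adjusted p = 0.195) and *Dtx3* of 0.59 (adjusted p = 0.0604), so that *Dtx3l* was the one negative value of the family.

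Among the 12 other target genes, of which 9 were tested, the median was 0.57 and *Cdkn1a* was the one call. *Ccnd1*, which encodes cyclin D1, had 53.4, 56.8 and 81.1 CPM with the WT label and 89.5, 124 and 92.5 CPM with the *Themis*-KO label (log2 fold change 0.68, adjusted p = 0.0614). *Hes6*, a Hes-family gene that opposes *Hes1*, was lower only in *Themis*-KO replicates 1 and 2, at 33.9 and 32.3 CPM, while replicate 3 had 63.5 CPM and the livers labelled WT had 63.9, 62.1 and 66.3 CPM (log2 fold change −0.57, adjusted p = 0.157). *Nrarp*, a feedback inhibitor of Notch and a direct target, was chosen here after its values were seen. It had 3.90, 4.32 and 4.54 CPM against 6.29, 4.47 and 6.56 CPM (log2 fold change 0.44, adjusted p = 0.156). Without *Themis*-KO replicate 3, 15 of the 56 other pathway genes were called, 10 higher and 5 lower, a share no larger than the 28.8% of all genes in that fit.

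Whole liver was sequenced, so fewer cells of a type and less RNA per cell cannot be told apart. Which cells carried the Notch transcripts was not measured. Marker levels are given by label for several cell types of the liver, hepatocytes included. Of 10 cholangiocyte markers, 9 were tested and 1, *Spp1* (osteopontin), was called higher, beside 4.97% of all genes, with a median log2 fold change of 0.96. That call was lost without WT replicate 1 and without WT replicate 2. Their summed level was 169 to 209 CPM in livers labelled WT and 401 to 633 CPM in livers labelled *Themis*-KO, and *Spp1* alone took 137 to 180 and 366 to 571 CPM. Like *Jag1*, the duct marker *Epcam*, chosen here after its values were seen, was highest in *Themis*-KO replicate 1, at 13.1 CPM against 5.98 and 7.32 CPM in replicates 2 and 3.

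Of 10 stellate cell markers, 6 were called higher and 0 lower, where 4.97% of all genes were called higher. Dropping replicate 1 of either label left 0 such calls, and dropping replicate 2 of either label left 2. Dropping replicate 3 left 4 for WT and 6 for *Themis*-KO. The summed level was 447 to 511 CPM with the WT label and 684 to 728 CPM with the *Themis*-KO label. *Col3a1*, a fibrillar collagen gene, had a log2 fold change of 0.94 (adjusted p = 0.00936) and *Dcn*, the decorin gene, one of 0.40 (adjusted p = 0.0423), a call kept in 1 of the 6 fits that left out a liver. The other calls, named after their values were seen, were *Pdgfrb*, *Col1a1*, *Col1a2* and *Lum*. Not called, and also named after their values were seen, were *Lrat* (log2 fold change 0.12, edgeR adjusted p = 0.476), *Reln* (0.05, 0.763), *Des* (0.22, 0.345) and *Rgs5* (0.39, 0.0850). The 10 endothelial markers gave 0 calls, and 4 upward at an unadjusted p under 0.05, where all genes gave 16.8% upward. They had 0 calls by DESeq2, a median of 0.19 and summed levels of 214 to 230 against 230 to 255 CPM. Of these, *Cdh5*, VE-cadherin, had 29.4, 30.3 and 40.5 CPM against 44.4, 45.4 and 39.5 CPM (adjusted p = 0.119), and *Stab2*, a scavenger receptor of sinusoidal cells, had a log2 fold change of 0.07 (adjusted p = 0.649). In *Cdh5* WT replicate 3 was the highest liver of its label, as it was in 6 of the 10 members, *Notch1* among them.

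The 8 vascular smooth muscle markers, of which 6 were tested, gave 0 calls, 2 upward and 1 downward at an unadjusted p under 0.05, 1 call by DESeq2, and summed levels of 141 to 161 against 115 to 148 CPM. *Mylk*, myosin light chain kinase, made up most of that sum and had a log2 fold change of −0.48 (adjusted p = 0.125), and *Tagln*, transgelin, had 0.54 (adjusted p = 0.167). Of 8 macrophage markers 3 were called higher, where 4.97% of all genes were, with summed levels of 212 to 354 against 357 to 502 CPM. The 3 were *Cd68*, *Trem2* and *Gpnmb*, named after their values were seen. The median log2 fold change of the list was 0.88. DESeq2 called 6 of the markers higher, where it called 8.02% of its genes upward. The number called higher by edgeR ran from 0 to 6 with a liver left out. It was 0 without WT replicate 1, WT replicate 2 or *Themis*-KO replicate 1 and 6 without WT replicate 3. *Lyz2*, a lysozyme gene, had a log2 fold change of 0.71 (adjusted p = 0.111), and *Clec4f*, a Kupffer cell lectin, one of 0.14 (adjusted p = 0.568). Of 8 hepatocyte markers 1, *Serpina1a* (named after its values were seen), was called lower and 0 higher, where 4.14% of all genes were called lower. With a liver left out, that call was kept only without WT replicate 3 and without *Themis*-KO replicate 3. Of the 8 markers, 0 had a positive log2 fold change, and the median was −0.28. DESeq2 called 4 of them lower, where it called 15.1% of its genes in either direction. The summed levels of the 8 markers were 58111 to 62355 against 48199 to 53495 CPM. *Alb* and *Apoa1*, both of secreted proteins, had log2 fold changes of −0.26 (adjusted p = 0.185) and −0.29 (adjusted p = 0.107).

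Lymphocyte markers were low. The 6 T cell markers, of which 4 were tested, summed to 3.26 to 4.58 against 2.49 to 5.31 CPM. Of these 4, 1 was called lower, beside 4.14% of all genes. It was *Cd4*, at 1.06 to 2.02 against 0.516 to 0.661 CPM (log2 fold change −1.46, edgeR adjusted p = 0.0386). Of the fits that left out a liver, only that without *Themis*-KO replicate 3 kept this call. *Cd8a* had a log2 fold change of 1.38 (adjusted p = 0.167). The 4 B cell markers, 0 of them called or at an unadjusted p under 0.05, summed to 2.34 to 5.57 against 1.59 to 4.91 CPM, and *Cd79b*, of the B cell receptor complex, had a log2 fold change of 0.19 (adjusted p = 0.782). The part of any of these cell types in the levels of the Notch genes was not tested.

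The genes whose log2 CPM followed *Jag1* most closely over the 6 livers, among 13042 genes with a mean of at least 1 CPM, were *Isg20l2*, *Oser1*, *Plekhg5*, *Prrc2b* and *Lonrf3*, with Pearson's r from 0.995 to 0.998. Those nearest to *Hes1* were *Esf1*, *Lcp1*, *Lnx2*, *Bmt2* and *Emp3*, with r from 0.992 to 0.998. Such values are a description over 6 points that share label and library, and 1055 genes reached an r of 0.9 with *Jag1* and 948 with *Hes1*. In *Lonrf3*, as in *Jag1*, *Themis*-KO replicate 3 stood with the livers labelled WT, at 0.945 CPM beside 5.52 and 3.44 CPM in replicates 1 and 2 and 0.816 to 0.947 CPM with the WT label.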

How the data were processed

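Per the labels and the methods, the authors extracted RNA from frozen liver, made poly(A) libraries, sequenced them paired-end, trimmed them with cutadapt 2.3, mapped reads to GRCm38 with STAR 2.7.8a and estimated counts per gene with RSEM 1.3.3. The deposited estimated counts are whole numbers and not normalized. RSEM divides reads that fit several genes, and neither the strand setting nor the annotation release is given in the sources used here. Genes that overlap the members had at most 33 counts over all livers.

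The label comparison was fitted with edgeR 4.0.16 under R 4.3.3 (filterByExpr, TMM, glmQLFit and glmQLFTest, label only). The filter kept 14496 of 25403 genes, and Benjamini-Hochberg adjustment covered every tested gene (threshold 0.05). DESeq2 1.42.0, other scalings and filters, a replicate block and each liver left out were alternatives. The mitochondrial type was added after the data were examined. Single values were compared by exact two-sided permutation tests (scipy 1.17.1), with a smallest p of 0.1. Correlations used log2 CPM with a prior count of 2. The fits were tested on simulated data. Labels do not say whether livers are littermates, and p-values measure the spread between these livers. No 2 livers of a label agreed within sampling noise, with a chi-square per degree of freedom of at least 9.80.

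Members and lists were chosen with earlier results of these data known. Named are all members, *Themis*, pathway genes past the threshold, the 2 most abundant tested genes of each list, and the 5 genes most like *Jag1* and *Hes1*; others are said to have been chosen after their values were seen. A few items that this covers are not reported here.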

Additional observations from a re-analysis of the deposited data

How the results depend on the processing

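Every tested member kept its direction under every alternative fitted except *Notch1*, which was negative with the mitochondrial type in the model, and *Dll4*, which was negative without WT replicate 3 and without *Themis*-KO replicate 3. The number of members called higher, 0, became 1 with total counts alone (*Notch2*), 1 with no filter on low counts (*Jag1*), 1 with DESeq2 (*Jag1*) and 2 at an adjusted p under 0.1, and ran from 0 to 5 with each liver left out. For the other pathway genes the number higher, 1, became 5 with total counts alone, 4 with no filter, 4 with DESeq2, 5 at an adjusted p under 0.1, 0 with the mitochondrial type in the model, and 0 to 10 with each liver left out. The number lower, 0, became 1 with DESeq2, 3 at an adjusted p under 0.1, and 0 to 5 with each liver left out. Over all genes, 721 higher and 600 lower became 1449 and 387 with total counts alone, 1212 and 967 with no filter, 1207 and 1072 with DESeq2, 0 and 3 with the mitochondrial type in the model, 1664 and 1316 at an adjusted p under 0.1, and 269 and 162 at a fold of at least 2. With each liver left out they ran from 8 to 2228 higher and from 12 to 2039 lower. The lowest count of each was without *Themis*-KO replicate 1 and the highest without *Themis*-KO replicate 3. Members whose labels did not overlap, 2, became 4 with total counts alone. The cause of these shifts was not tested.

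Same-numbered livers did not deviate together from their label means, with correlations of 0.000277, −0.241 and −0.157, and no liver labelled WT correlated best with its own number. The replicate block gave 0 members and 0 other pathway genes called higher, and 17 genes higher and 45 lower over all genes. At this depth the values of *Jag2*, *Hey1*, *Heyl* and *Notch3*, with 4 to 102 counts a liver, limit what can be seen.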
